A study of Mus musculus with 6 samples.

Results

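Contractile and actin-binding genes were followed in RNA sequencing libraries of mouse prostate basal cells, sorted from the proximal ducts, which lie near the urethra, and from the distal ducts, which lie toward the gland tips. The set comprised 10 of the 25273 genes that had a value in these libraries. Its members were chosen by name as Acta2, Actg2, Tagln, Cnn1, Myh11, Mylk, Myl9, Tpm1, Tpm2 and Flna, and each was given the summed FPKM of its transcripts, a level per kilobase scaled to the library. Of these, 3 members, Actg2, Cnn1 and Myh11, were classed as typical of smooth muscle only, and the other 7 as also used by epithelial cells. Cnn1 and Myh11 stand as well in the list of myoepithelial markers used below, so this class is not strict. Both groups, proximal basal and distal basal, had 3 libraries from C57BL/6 mice aged 8 to 12 weeks, and the labels give no genetic change or treatment for either. Cells were sorted with fluorescent antibodies, which are not named in the sources used here. The labels' culture protocol speaks of stromal cells, and whether basal cells were cultured before sorting is not given. Whether each library stands for a different animal is not given, and p-values therefore reflect only library-to-library spread, which may be technical.

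Contraction in smooth muscle and in myoepithelial cells depends on actin filaments that slide against myosin II. A kinase activates the myosin by phosphorylating its regulatory light chain, and tropomyosin, calponin and caldesmon lie along the filament and control access to it. Many of these genes are targets of serum response factor (SRF), which binds a DNA element known as the CArG box together with cofactors of the myocardin family. In glands such as the breast, basal cells are contractile and rich in smooth muscle actin, whereas the prostate has a separate coat of stromal smooth muscle around its ducts.

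The depth implied by the width of the deposited intervals was 21100000 to 25700000 fragments in proximal and 20700000 to 26600000 in distal libraries. The basal keratins were abundant throughout. Krt14 averaged 2185 FPKM in proximal cells, against 2716 FPKM in distal ones, and Krt5 averaged 618 against 380 FPKM in the same order. Of 12 tested basal markers 6 were higher in proximal cells (Krt5 among them) and 6 did not pass, and among 9 luminal markers the calls were 1 higher and 2 lower. The basal count was 1 without distal replicate 2 or 3 or proximal replicate 2 or 3 and 8 without distal replicate 1, and the luminal count was 1 without the same 4 libraries, 2 without proximal replicate 1 and 4 without distal replicate 1. Over all tested genes the calls moved too, from 464 higher and 256 lower to 517 and 622 without distal replicate 1. Without each of the same 4 libraries they were 202 to 256 higher and 46 to 74 lower. The call of Krt5 was lost without each of those 4 libraries and with no filter on low values, and its adjusted p over all alternatives ran from 0.00388 to 0.104 (limma). The luminal keratins Krt8 and Krt18 were abundant too, at 519 to 661 and 1218 to 1373 FPKM in proximal libraries, against 474 to 643 and 1076 to 1628 FPKM in distal ones. In bulk libraries, fewer cells of a type and less RNA per cell cannot be told apart.

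Of the 10 members, only Flna passed the test between duct regions. All 10 had a mean of at least 1 FPKM and were tested on log2(FPKM + 1) among 10255 genes with limma, two-sided, with Benjamini-Hochberg adjustment over all of them. In all, 1 member was called higher in proximal cells, none lower, and 9 did not pass. Of the 10, 3 had an unadjusted p under 0.05 (Flna, Myh11 and Tpm1), as did 2466 of the 10255 tested genes. The later counts at this unadjusted threshold are to be read beside that share. Over all tested genes, 7.02% were called in either direction, 4.52% as higher and 2.50% as lower in proximal cells, so 1 call among 10 is near that background. The median log2 fold change of the members was 0.18, beside -0.01 over all tested genes. It was 0.08 for the 3 smooth muscle genes and 0.27 for the 7 shared genes.

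**Figure D1:**
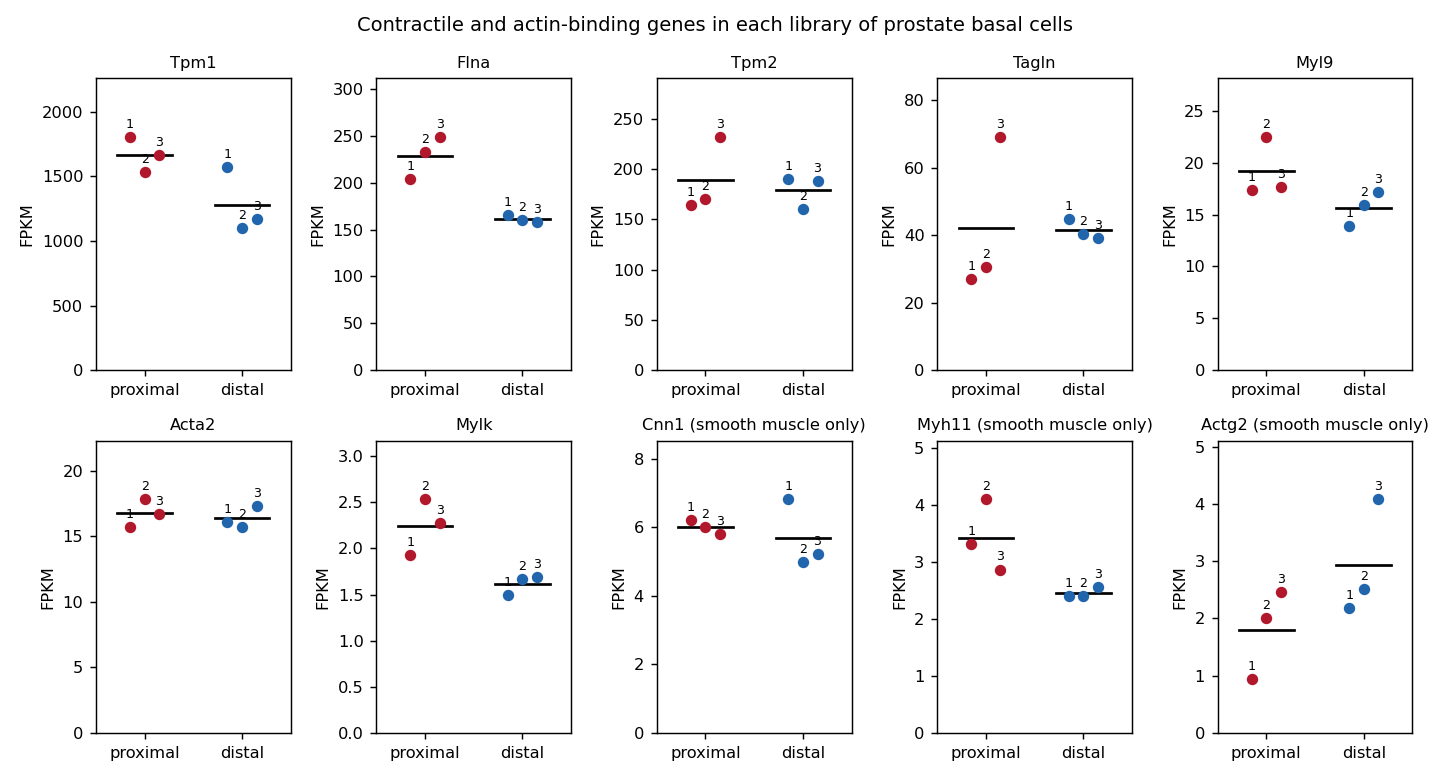
FPKM of each member in each library, with proximal libraries left and distal libraries right, each axis starting at 0. Points carry the replicate number and lines show the group mean. The groups stand apart for Flna, Myl9, Mylk and Myh11, and proximal replicate 3 lies far above the other libraries for Tagln, at 69.2 FPKM.

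The levels of the members differed widely. Averaged over the 6 libraries, Tpm1 stood at 1473 FPKM, Flna at 195, Tpm2 at 184, Tagln at 41.9, Myl9 at 17.4, Acta2 at 16.6, Cnn1 at 5.84, Myh11 at 2.94, Actg2 at 2.36 and Mylk at 1.93 FPKM. The neighbours Flna and Tpm2, Myl9 and Acta2, Myh11 and Actg2, and Actg2 and Mylk had overlapping ranges over the libraries, and the other neighbours in this order did not overlap. Tpm1 alone made up 73.6% to 80.4% of the summed FPKM of the members in proximal and 72.9% to 77.9% in distal libraries. The 3 smooth muscle genes together amounted to 10.5, 12.1 and 11.1 FPKM in proximal libraries, against 11.4, 9.92 and 11.9 FPKM in distal ones. That was 0.465% to 0.599% of the members' sum in proximal and 0.565% to 0.743% in distal libraries.

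Acta2, which encodes smooth muscle alpha-actin, was at a modest and even level. It had 15.7, 17.8 and 16.7 FPKM in the proximal libraries and 16.1, 15.7 and 17.3 FPKM in the distal libraries. The groups overlapped fully, and their means were 16.7 ± 1.05 FPKM in proximal cells, against 16.4 ± 0.831 FPKM in distal ones (SD, n = 3 each). Its log2 fold change was 0.03 ± 0.10 (SE, limma, adjusted p = 0.900), with a 95% confidence interval of -0.21 to 0.27. On the FPKM + 1 scale this interval spans ratios of proximal to distal from 0.87 to 1.20. Acta2 was 0.264% to 0.314% of the summed FPKM of the actin genes in proximal and 0.279% to 0.308% in distal libraries. Most actin transcript came from the cytoplasmic actins Actg1 and Actb, at 3865 and 1949 FPKM in proximal cells, against 3716 and 1785 FPKM in distal ones, and both missed the threshold (limma, adjusted p = 0.863 and 0.674). Acta2 lies on chromosome 19 (34241090 to 34255590, mm10, minus strand) and had 1 transcript in the files, whose intervals imply 863 to 1119 fragments a library. Of its 50-base windows, 0.352% also occur in a transcript of another gene, all of them in Gm8399. The genes whose pattern over the 6 libraries lay nearest to that of Acta2 were Ncbp1, Kpna3, Rexo1, Tsnax and Aig1. Their centred log2 levels differed from those of Acta2 by a root mean square of 0.0190 to 0.0332. Acta2 ran only from 15.7 to 17.8 FPKM, so this measure picks other genes that varied little, and a shared pattern cannot be read from it.

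Promoter sequence was at hand for 7 of the 10 members, from RefSeq on GRCm38.p6, the assembly of mm10. The 250 bases before each start were searched for the CArG box, as CC, 6 inner bases of which at least 5 were A or T, and GG, a pattern that matches both strands at once. Acta2 and Myl9 each held 2 matches, and Cnn1, Flna, Mylk, Tpm1 and Tpm2 held none. Of 32851 promoters of the same length, 8.59% held at least 1 match and 0.670% held 2 or more. These sequences are shown because they are the member promoters with matches, and that of Flna because it is the member that passed the test, with matches in capitals and each ending at the base before the start of a deposited transcript.
Acta2, chr19:34255374-34255623, minus strand: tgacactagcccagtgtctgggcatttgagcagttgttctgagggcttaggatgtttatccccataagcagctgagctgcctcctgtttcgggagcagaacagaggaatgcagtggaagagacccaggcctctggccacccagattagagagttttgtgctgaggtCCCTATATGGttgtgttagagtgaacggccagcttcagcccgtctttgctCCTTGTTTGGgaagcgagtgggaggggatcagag
Myl9, chr2:156775214-156775463, plus strand: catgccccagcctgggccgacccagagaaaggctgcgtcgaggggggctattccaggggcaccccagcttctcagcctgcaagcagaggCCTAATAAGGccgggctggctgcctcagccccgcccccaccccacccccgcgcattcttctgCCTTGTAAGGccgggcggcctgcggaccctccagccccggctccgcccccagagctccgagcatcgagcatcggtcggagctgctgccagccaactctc
Flna, chrX:74246535-74246784, minus strand: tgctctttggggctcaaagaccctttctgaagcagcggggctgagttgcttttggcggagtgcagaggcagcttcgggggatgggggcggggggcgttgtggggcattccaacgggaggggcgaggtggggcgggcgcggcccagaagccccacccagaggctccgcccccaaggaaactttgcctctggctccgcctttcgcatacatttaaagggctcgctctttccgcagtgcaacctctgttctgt
In Acta2 the matches begin 84 and 34 bases before the start, and in Myl9 161 and 99 bases before it. All 6 inner bases were A or T in 1 of these 4 matches, CCTAATAAGG of Myl9, a form held by 1.47% of all promoters. A match describes these letters and does not show binding.

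The 3 smooth muscle genes stood at a low level in every library. Cnn1, which encodes the calponin of smooth muscle, lies on chromosome 9 (22099216 to 22109630, mm10, plus strand). It had 6.20, 6.00 and 5.81 FPKM in proximal libraries, against 6.81, 4.99 and 5.23 FPKM in distal ones. The distal values enclosed the proximal ones, and the log2 fold change was 0.08 ± 0.14 (SE, limma, adjusted p = 0.775). Cnn1 was 0.942% to 1.26% of the summed FPKM of the calponin genes in proximal and 1.11% to 1.58% in distal libraries.

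Myh11, which encodes the myosin heavy chain of smooth muscle, lies on chromosome 16 (14194535 to 14291372, mm10, minus strand). It had 3.31, 4.10 and 2.87 FPKM in proximal libraries, against 2.40, 2.41 and 2.57 FPKM in distal ones. Every proximal value lay above every distal one. The log2 fold change of 0.35 ± 0.14 did not pass (SE, limma, adjusted p = 0.192). The largest share of its level lay on a transcript of 6593 bases, at 1.60, 2.76 and 2.08 FPKM in proximal libraries, against 1.72, 2.41 and 2.01 FPKM in distal ones. For this transcript the groups overlapped, with a log2 fold change of 0.04 (limma, adjusted p = 0.951 over 13878 transcripts). The shorter transcript of 4535 bases had 0.973, 1.34 and 0.788 FPKM in proximal libraries, against 0.675, 0 and 0.559 FPKM in distal ones, and that of 6632 bases was above 0 in proximal replicate 1 alone. Myh11 shares 0.4% of its 50-base windows with the nonmuscle gene Myh9.

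Actg2, which encodes the gamma-actin of enteric smooth muscle, lies on chromosome 6 (83512905 to 83536265, mm10, minus strand). It had 0.939, 2.00 and 2.46 FPKM in proximal libraries, against 2.18, 2.52 and 4.08 FPKM in distal ones. Proximal replicate 1 was the lowest library and distal replicate 3 the highest, and the groups overlapped. Its log2 fold change of -0.50 ± 0.26 was the most negative among the members and did not pass (SE, limma, adjusted p = 0.287). The intervals imply only 26.0, 49.0 and 73.3 fragments in proximal and 51.7, 77.3 and 108 in distal libraries, so counting error is large here.

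A list of 15 genes that mark smooth muscle, which contains these 3, was set beside the members. Of its 9 tested genes none was called (limma), and 2 had an unadjusted p under 0.05, Pgm5 and Myh11, both higher in proximal cells. Its median log2 fold change was 0.07. Myocd, the SRF cofactor that drives the smooth muscle programme, reached at most 0.0782 FPKM in proximal libraries, against 0.0364 FPKM in distal ones. Kcnmb1, a potassium channel subunit of smooth muscle, reached at most 0.0701 FPKM in proximal libraries, against 0.0494 FPKM in distal ones, and Ldb3, a protein of the muscle Z-disc, at most 0.00940 against 0.0224 FPKM in the same order. Des, the muscle intermediate filament, was at 2.10 ± 0.655 FPKM in proximal cells, against 1.84 ± 0.324 FPKM in distal ones (SD, n = 3 each, limma, adjusted p = 0.750). Smtn, which encodes smoothelin, was the exception in level, at 201 ± 23.8 FPKM in proximal cells, against 195 ± 28.8 FPKM in distal ones (SD, n = 3 each, limma, adjusted p = 0.879). Pgm5, which encodes the adhesion protein aciculin, was at 10.1 FPKM in proximal cells, against 7.04 FPKM in distal ones, with groups that did not overlap (limma, adjusted p = 0.114).

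**Figure D2:**
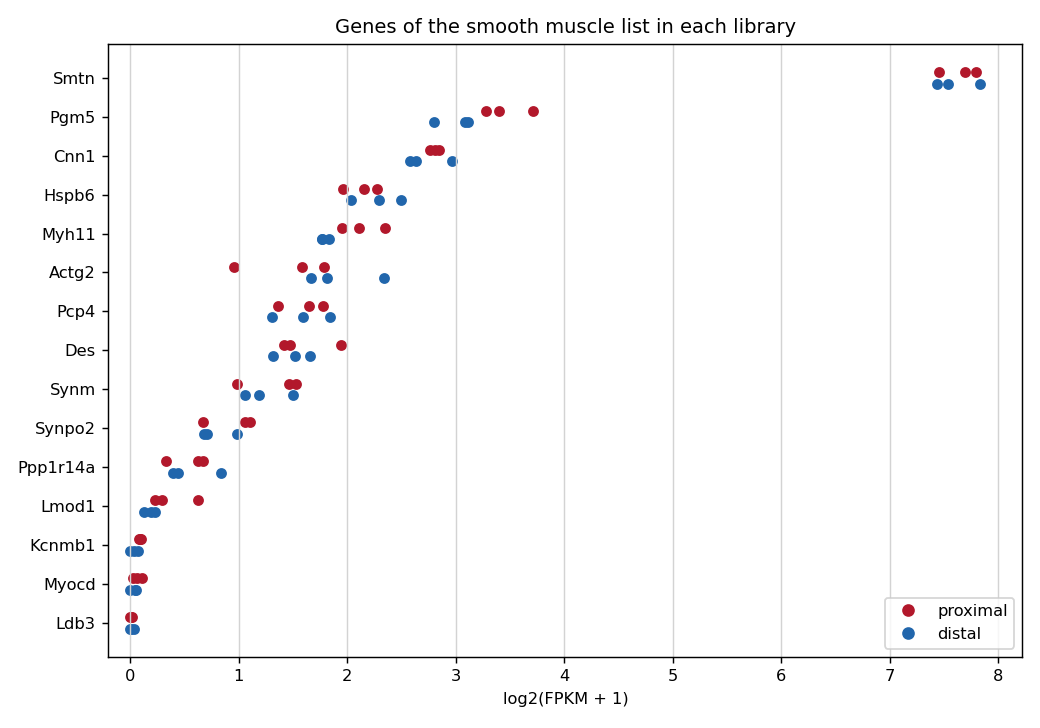
Level on the log2(FPKM + 1) scale of the 15 genes of the smooth muscle list, with the 3 proximal libraries above the 3 distal ones for each gene. Smtn stands far above the rest, and Kcnmb1, Myocd and Ldb3 lie at or near 0 in all 6 libraries.

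Among the shared members, Flna rose in proximal cells. It encodes filamin A, which crosslinks actin filaments and anchors them to integrins. Flna had 204, 233 and 249 FPKM in proximal libraries, against 166, 160 and 158 FPKM in distal ones. All proximal values lay above all distal ones, and the means were 228 ± 22.8 FPKM in proximal cells, against 161 ± 4.43 FPKM in distal ones (SD, n = 3 each), a ratio of 1.42. The log2 fold change was 0.49 ± 0.11 (SE, limma, adjusted p = 0.0359), with a 95% confidence interval of 0.24 to 0.75. Flna no longer passed without distal replicate 2 (adjusted p = 0.148), distal replicate 3 (0.131), proximal replicate 2 (0.145) or proximal replicate 3 (0.128), with no filter on low values (adjusted p = 0.0606) and with median ratio scaling (adjusted p = 0.0514). Without each of these libraries fewer genes were called over the whole series too, 202 to 256 higher and 46 to 74 lower, against 464 and 256 with all libraries. Over all alternatives the log2 fold change of Flna was 0.43 to 0.60, and its adjusted p ran from 0.00692 to 0.148. Flna lies on chromosome X (74223461 to 74249820, mm10, minus strand) and has 2 transcripts in the files, of 8347 and 8369 bases. The shorter had a log2 fold change of 0.51 and the longer of 0.41, and neither passed among transcripts (limma, adjusted p = 0.0980 and 0.0680). Of all tested transcripts, 3.06% were called in either direction and 2.16% as higher in proximal cells.

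The filamin Flnc rose in proximal cells too. Flnc, best known from muscle, had 5.01, 6.29 and 6.06 FPKM in proximal libraries, against 1.96, 2.08 and 1.66 FPKM in distal ones, with no overlap. Its log2 fold change was 1.23 ± 0.14 (SE, limma, adjusted p = 0.00265). The call held under every alternative that tested Flnc, with an adjusted p of at most 0.0190.

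Filamins are made by many cell types, and markers of stromal cells moved with the regions. Of the tested pericyte markers, 3 of 5 were higher in proximal cells, as were 5 of 7 fibroblast and 5 of 9 endothelial markers, and none of these lists had a member called lower. With 1 library left out, the called markers numbered 1 to 3, 2 to 4 and 0 to 7 in these lists. The endothelial count was 0 without distal replicate 2, distal replicate 3 or proximal replicate 2, and 7 without distal replicate 1. The fibroblast count was 2 without distal replicate 1 or 2 or proximal replicate 2 or 3, and the pericyte count was 1 without distal replicate 3 or proximal replicate 2. Of 4 leukocyte markers 1 was higher, and the count was 2 without distal replicate 1 and 0 without distal replicate 2 or 3 or proximal replicate 2 or 3. Vim, the intermediate filament of mesenchymal cells, was at 24.7 ± 2.29 FPKM in proximal cells, against 7.11 ± 1.37 FPKM in distal ones (SD, n = 3 each, limma, adjusted p = 0.000867). Mcam, a surface marker of pericytes and endothelium, was at 8.16 FPKM in proximal cells, against 3.47 FPKM in distal ones, and Col3a1, a fibrillar collagen, at 16.3 against 7.83 FPKM in the same order (limma, adjusted p = 0.00270 and 0.00736). The summed level of the 8 pericyte markers was 16.3 to 17.2 FPKM in proximal libraries, against 7.61 to 8.75 FPKM in distal ones, and that of the 10 endothelial markers 28.5 to 38.9 and 6.37 to 19.9 FPKM in the same order. The 10 fibroblast markers summed to 708 to 777 FPKM in proximal libraries, against 776 to 818 FPKM in distal ones, most of it from Dcn, which was at 679 FPKM in proximal cells, against 769 FPKM in distal ones, and did not pass. None of these markers was at 0 in all libraries. Their part in the difference of Flna and Flnc was not tested.

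The remaining shared members differed by less. Tpm1, which encodes the alpha-tropomyosin that wraps actin filaments, lies on chromosome 9 (67022590 to 67049406, mm10, minus strand). It had 1807, 1531 and 1667 FPKM in proximal libraries, against 1570, 1099 and 1167 FPKM in distal ones. Distal replicate 1 lay among the proximal values, and the other distal libraries lay below them all. The log2 fold change was 0.40 ± 0.17 and did not pass (SE, limma, adjusted p = 0.203), and Tpm1 was called as higher in proximal cells without distal replicate 1 (adjusted p = 0.0395). It was called as well without both libraries numbered 1 (adjusted p = 0.0207) and with quantile normalization (adjusted p = 0.0283), and its adjusted p over all alternatives ran from 0.0207 to 0.498. The files list 12 transcripts of Tpm1, and the authors' estimate put the whole level on 1 of them and 0 on the other 11 in every library. At least 1 other listed transcript has the same span and length, so which tropomyosin isoform was made cannot be told from these values. Tpm1 was 62.6% to 68.9% of the summed FPKM of the tropomyosins in proximal and 57.0% to 64.6% in distal libraries.

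Tpm2, which encodes beta-tropomyosin, lies on chromosome 4 (43514711 to 43523765, mm10, minus strand). It had 164, 170 and 232 FPKM in proximal libraries, against 190, 160 and 188 FPKM in distal ones. The groups overlapped, and the log2 fold change was 0.06 ± 0.15 (SE, limma, adjusted p = 0.861). Tpm2 was 6.25% to 8.72% of the tropomyosins in proximal and 7.83% to 9.16% in distal libraries.

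Tagln, which encodes the actin-binding protein transgelin (SM22), had the largest standard error of the log2 fold change among the members. Tagln lies on chromosome 9 (45929619 to 45936058, mm10, minus strand). It had 26.9, 30.6 and 69.2 FPKM in proximal libraries, against 44.9, 40.3 and 39.3 FPKM in distal ones. The 3 distal libraries lay close together, proximal replicates 1 and 2 lay below them, and proximal replicate 3 lay above them. The interval deposited beside the value of proximal replicate 3 was 65.3 to 73.1 FPKM, and that of proximal replicate 2 was 28.3 to 32.9 FPKM, so counting error is far smaller than the gap. The group means were nearly equal, at 42.2 FPKM in proximal cells, against 41.5 FPKM in distal ones, and the log2 fold change was -0.10 ± 0.31 (SE, limma, adjusted p = 0.885). It was -0.51 without proximal replicate 3 (adjusted p = 0.0865) and 0.15 without proximal replicate 1, and over all alternatives its adjusted p ran from 0.0865 to 0.955. The related Tagln2 was more abundant, and Tagln was 4.78%, 5.62% and 11.2% of both together in proximal and 8.27%, 8.03% and 7.53% in distal libraries.

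Myl9, which encodes a regulatory light chain of myosin II, lies on chromosome 2 (156775420 to 156781658, mm10, plus strand). It had 17.4, 22.5 and 17.7 FPKM in proximal libraries, against 13.9, 15.9 and 17.2 FPKM in distal ones. The lowest proximal and highest distal values lay close together without overlap, and the log2 fold change of 0.27 ± 0.14 did not pass (SE, limma, adjusted p = 0.266). Myl9 was 2.23% to 3.31% of the summed FPKM of the light chains Myl9, Myl12a and Myl12b in proximal and 1.65% to 2.21% in distal libraries.

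Mylk, on chromosome 16 (34745210 to 35002420, mm10, plus strand), encodes the kinase that phosphorylates that light chain. It had 1.93, 2.53 and 2.27 FPKM in proximal libraries, against 1.49, 1.67 and 1.69 FPKM in distal ones, again with no overlap and without passing the test (log2 fold change 0.30 ± 0.14 SE, limma, adjusted p = 0.224). Its level was divided over 3 transcripts, each with a mean below 1 FPKM and not tested. For each of the 3 the groups overlapped, so the gap was seen only in their sum. The transcripts of 7809 and 3730 bases were highest in distal replicate 2, at 0.803 and 0.870 FPKM. That of 2634 bases, which covers only the end of the gene (34994864 to 35002434), was at 0 in that library. Its proximal replicate 1, at 0.607 FPKM, lay below distal replicate 3, at 0.830 FPKM. Groups that did not overlap were found for 4 of the 10 members, all with the proximal libraries higher. Over all tested genes, 28.8% had groups that did not overlap in either direction and 15.8% had the proximal libraries higher.

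**Figure D3:**
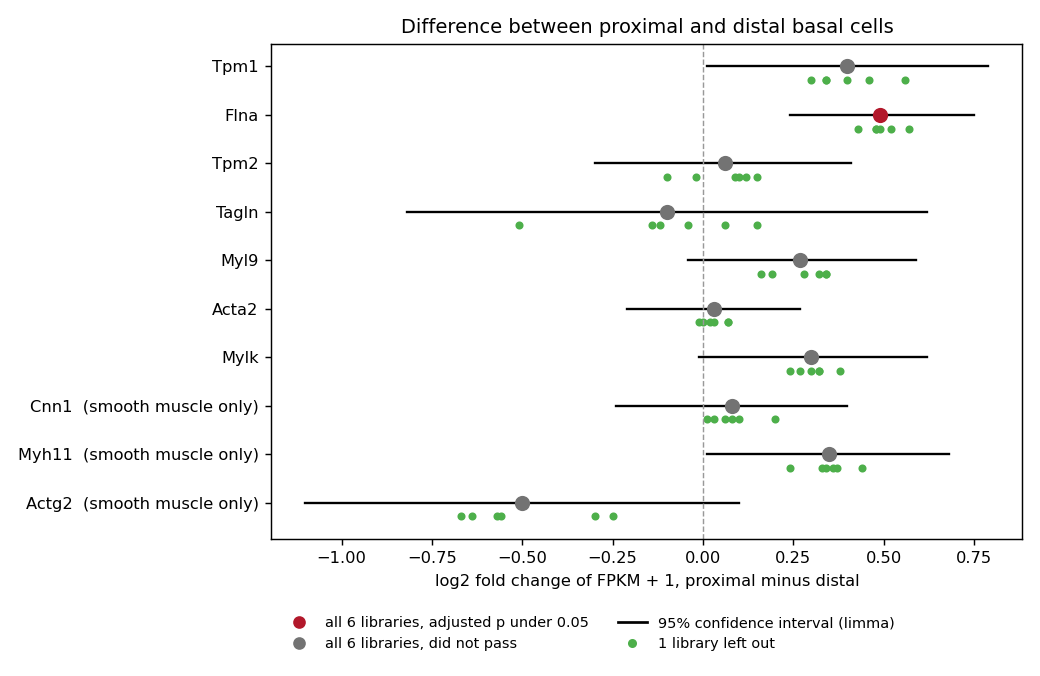
Log2 fold change of FPKM + 1, proximal minus distal, for each member. Large points and lines give the value and its 95% confidence interval from all 6 libraries, and small points the values with 1 library left out. Flna, in red, passed the test, with values of 0.43 to 0.57 when 1 library was left out, and those of Tagln ran from -0.51 to 0.15.

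Acta2, Actg2, Tpm2, Cnn1, Tagln, Myh11 and Myl9 were minor forms of their families in these cells. Myh11 was 1.56% to 2.47% of the summed FPKM of the myosin II heavy chains in proximal and 1.65% to 1.79% in distal libraries, where the nonmuscle chain Myh9 made up most, at 153 ± 26.3 FPKM in proximal cells, against 130 ± 6.38 FPKM in distal ones (SD, n = 3 each, limma, adjusted p = 0.391). The calponin Cnn2 was at 234 FPKM in proximal cells, against 180 FPKM in distal ones, and did not pass (limma, adjusted p = 0.123). Cald1, which encodes caldesmon, was at 121 ± 27.7 FPKM in proximal cells, against 78.3 ± 4.95 FPKM in distal ones (SD, n = 3 each), with no overlap, and did not pass (log2 fold change 0.60 ± 0.16 SE, limma, adjusted p = 0.0673, and 0.0190 to 0.231 over the alternatives). In the list of other tropomyosins, calponins, transgelins and filamins, 1 of 8 tested genes was higher, Flnc, and 7 did not pass, and 4 were called without proximal replicate 1. All 8 had a positive log2 fold change, with a median of 0.33, whereas 48.5% of all tested genes had a positive one.

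**Figure D4:**
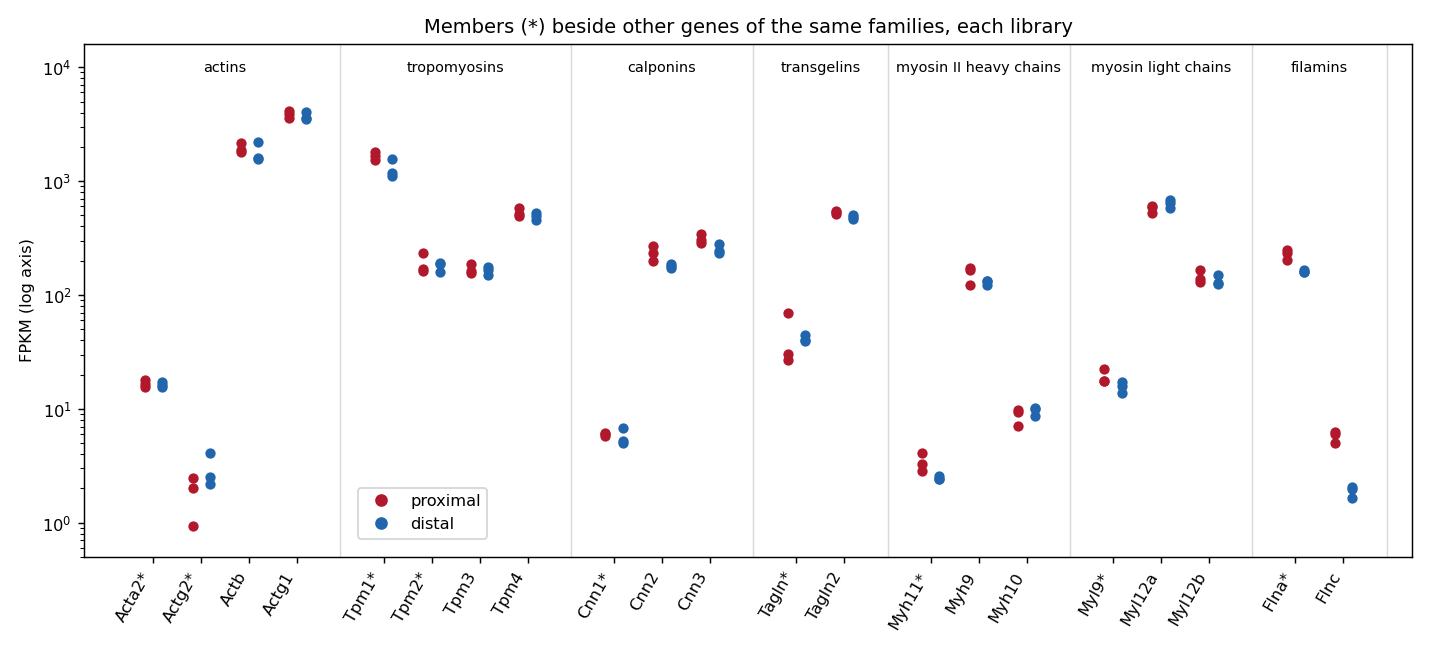
FPKM on a log axis of the members, marked with an asterisk, beside other genes of their families, with proximal points left and distal points right for each gene. The cytoplasmic actins, Tagln2, Cnn2, Cnn3, Myh9, Myl12a and Myl12b lie far above the smooth muscle forms in all 6 libraries.

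The wider contractile machinery gave no calls with all 6 libraries, and calls under some alternatives. None of the 16 tested actin crosslinkers and stress fibre proteins was called (limma), 6 had an unadjusted p under 0.05, and the median log2 fold change was 0.21. Without both libraries numbered 1, 7 of these crosslinkers were called, as were 2 of the regulators of myosin phosphorylation, 3 of SRF and its cofactors and 7 of the SRF targets. Fhl2, Srf and Vcl were among these calls and stand in more than 1 of the lists, so the counts share genes. The calls of this setting went both ways, with Palld at a log2 fold change of 0.41 and Fhl2 at -0.36. In that setting the calls over all tested genes rose as well, to 908 higher and 1385 lower, against 464 and 256 with all 6 libraries. In the list of crosslinkers, Vcl, which encodes the adhesion protein vinculin, was at 129 FPKM in proximal cells, against 104 FPKM in distal ones, and Palld, which encodes the scaffold palladin, at 420 FPKM in proximal cells, against 326 FPKM in distal ones, both with groups that did not overlap (limma, adjusted p = 0.0931 and 0.0989). Fhl2, an adaptor that binds SRF, was at 326 FPKM in proximal cells, against 410 FPKM in distal ones (limma, adjusted p = 0.0980). None of the 15 tested regulators of myosin phosphorylation was called (limma), 2 had an unadjusted p under 0.05, and their median was 0.05. Of 9 tested myoepithelial markers, 5 of the list being members, none was called (limma) and 4 had an unadjusted p under 0.05, and 1 was called without distal replicate 1 or proximal replicate 1. Of 5 tested nonmuscle myosin chains none was called (limma) or had an unadjusted p under 0.05. The nonmuscle heavy chain Myh14 averaged below 1 FPKM and was not tested. It had 0.881, 0.930 and 0.737 FPKM in proximal libraries, against 0.0421, 0.0328 and 0.0318 FPKM in distal ones, with no overlap. Rhob, a small GTPase, had a log2 fold change of -0.53, and Cdc42bpa, a kinase that acts on the myosin light chain, had 0.48 (limma, adjusted p = 0.0562 and 0.0796).

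SRF and its cofactors did not pass either, with none of 8 tested genes called (limma), 3 at an unadjusted p under 0.05 and a median log2 fold change of -0.00. Srf was at 40.5 ± 3.02 FPKM in proximal cells, against 53.7 ± 8.60 FPKM in distal ones (SD, n = 3 each, limma, adjusted p = 0.135). Mrtfb, a cofactor of SRF that responds to free actin, was at 4.55 FPKM in proximal cells, against 2.96 FPKM in distal ones (limma, adjusted p = 0.0813). Among 13 tested SRF targets outside the members, none was called (limma) and 7 had an unadjusted p under 0.05. Without distal replicate 1, 4 of these targets were called, with Srf, which stands in both lists, among them. Srf was also the 1 call in the list of SRF and its cofactors (log2 fold change -0.52, limma, adjusted p = 0.0266). Without proximal replicate 1, the 1 call in that list was Mrtfb, in the other direction (log2 fold change 0.57, limma, adjusted p = 0.0474). Over all tested genes, 517 were called higher and 622 lower without distal replicate 1, and 533 and 548 without proximal replicate 1. The immediate early genes Fos and Egr1 were at 171 and 450 FPKM in proximal cells, against 338 and 1447 FPKM in distal ones, with adjusted p = 0.0514 and 0.0813 (limma), and both were higher in distal replicates 2 and 3 than in distal replicate 1.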

How the data were processed

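Per the submitters' processing notes, the tools were Cufflinks, TopHat and bcl2fastq 1.8.3, with build mm10. Each deposited file holds FPKM with an interval for 63241 transcripts of 1 library, per the file headers, and a coverage signal, deposited but not used here. Total RNA was turned into cDNA with random and oligo(dT) primers and the Ovation kit, per the labels' protocols, and strand marking is not stated. Transcripts were matched to GENCODE M21 genes by span and spliced length (53323 matched, holding 93.9% of FPKM) and summed per gene. Span overlap times length ratio had to reach 0.5, with other genes below 0.8 of the best score, or else exons of 1 gene had to fill 0.8 of the length. Genes averaging 1 FPKM or more entered limma 3.58.1 (R 4.3.3) as log2(FPKM + 1), with a variance trend and no covariates, at an adjusted p under 0.05. Fold changes on this scale understate the change of low genes. Depth was derived from interval widths, taken as 2 Poisson SDs. The procedure was tested on simulated data. An exact permutation test of 3 against 3 libraries cannot go below p = 0.1 and was not used.

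The members and lists were chosen with earlier results of these data known. Named genes are the members, the smooth muscle list, up to 4 genes with the smallest p in each of 16 lists, basal and luminal identity genes, and the 5 genes most like Acta2. Tagln2, Cnn3, Dcn and Myh14 were named after their values were seen. Some genes that this rule takes, and results that need them, are not reported here. Alternatives were other pseudocounts, filters and scalings, no variance trend, closely matched transcripts, the replicate number as a block, and leaving out libraries. The files mark 25 transcripts with a status other than OK.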

Additional observations from a re-analysis of the deposited data

How the results depend on the processing

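The count of called members was 1 with all 6 libraries, 0 with no filter on low values or with median ratio scaling, and 2, Flna and Tpm1, with quantile normalization or without both libraries numbered 1. Leaving out 1 library gave 0 to 2 called members and 0 to 1 called transcripts of members, and without both libraries numbered 1 a single transcript, of Flna, was called. With the replicate number as a block, 2 members were called, Flna and Tpm1. Deviations from the group mean correlated at 0.38, 0.04 and 0.29 between libraries numbered 1, 2 and 3. Between libraries of different numbers the correlations ran from -0.37 to 0.16. For number 2, both libraries correlated more with a library numbered 3, at 0.16 and 0.13. Whether the numbers pair the libraries cannot be settled from these values. The block moved the count over all genes to 880 higher and 732 lower, against 464 and 256 without it. It also called 6 of 16 crosslinkers, 2 of 15 regulators of myosin phosphorylation, 2 of 8 genes of SRF and its cofactors, 5 of 13 SRF targets and 2 of 9 myoepithelial markers, all at 0 without it. Fhl2 and Vcl were among these calls and stand in more than 1 of the lists.

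Of 157 member values under an alternative, 141 kept direction and side of the threshold, 6 changed sign, 6 lost the call (all Flna) and 4 gained it (all Tpm1). Tagln turned to 0.21 without both libraries numbered 1. With 1 library left out, the log2 fold change ran from -0.01 to 0.07 for Acta2, from -0.51 to 0.15 for Tagln, from -0.10 to 0.15 for Tpm2, from -0.04 to 0.16 for Smtn, from -0.05 to 0.21 for Des and from -0.06 to 0.24 for Krt18. The causes were not tested. Median ratio scaling and quantile normalization gave a median log2 fold change of -0.01 over all genes, as without them. At a filter of 5 FPKM, Actg2, Myh11 and Mylk were not tested. At its depth, Actg2 rested on 26.0 to 108 implied fragments a library.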

Other observations

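Proximal replicate 3, which stood apart for Tagln, was also the highest proximal library for Tpm2, Flna and Actg2. Among 8 tested tropomyosins, calponins, transgelins and filamins outside the members it was the highest proximal library for 6, and for both tested cytoplasmic actins, against 31.0% of all tested genes. It was the highest for 5 of 16 actin crosslinkers and stress fibre proteins (31.2%) and 3 of 9 myoepithelial markers (33.3%), shares close to that of all genes. For 5 of 9 smooth muscle markers, 3 of 5 nonmuscle myosin chains, 8 of 15 regulators of myosin phosphorylation, 4 of 8 genes of SRF and its cofactors and 7 of 13 SRF targets it was the highest as well. Some genes stand in several of these lists. Among other markers it was the highest for 2 of 5 pericyte and 3 of 9 luminal ones. The shares were below that of all genes for fibroblast (1 of 7), endothelial (1 of 9), leukocyte (1 of 4), basal (3 of 12) and nerve and glia markers (0 of 3). These counts were made after the values of Tagln were seen, the genes are not independent, and no test was made.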
